A study of Mus musculus with 12 samples.

Results

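SOX, PAX, GATA and T-box proteins are 4 families of transcription factors that set cell fate in embryos and in many adult tissues. Their genes were followed in undifferentiated spermatogonia of mouse testes moved to the abdomen and of control testes. The members were the genes whose symbol is Sox, Pax, Gata or Tbx followed by a number, without *Sox3*, which gave 46 of the 21859 genes measured (18 SOX, 9 PAX, 6 GATA and 13 T-box genes). RNA was measured in 5 control and 7 cryptorchid libraries of GFRa1-EGFP+/KIT- cells, sorted from males aged 8 to 10 weeks of a line in which EGFP marks cells with the GDNF receptor gene *Gfra1*. All males carried this reporter. The left testis had been fixed to the abdominal wall 10 days earlier to make it cryptorchid, and the right testis, left in the scrotum, was the control. Control testes were digested at 32°C and cryptorchid testes at 37°C, so condition, body side and digestion temperature cannot be told apart. The labels do not say which libraries share a mouse, and without a statement that each came from separate animals the *P*-values measure the spread between these libraries.

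SOX factors bind DNA through an HMG box like that of SRY, the protein that starts testis development. PAX factors carry a paired domain and act in organ formation together with products of the *Six4* and *Eya4* gene families. GATA factors bind the letters GATA through zinc fingers, and several are known from blood cells and from Sertoli cells, the somatic cells that nurse the germ line. T-box factors share the DNA-binding domain of Brachyury, the product of the gene *T*.

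Values are log2 RPM, the log2 of read numbers scaled to the size of each library. A common lowest value of -1.92 log2 RPM, the highest of the 12 library minima, was given to every value at or under it, because genes without reads are listed at a value that depends on the depth of the library. The reads on genes numbered 4511730 to 24345368 in control and 3306771 to 20027902 in cryptorchid libraries, with medians of 7603202 and 4611830. Replicates 1 to 3 of both groups stood apart from replicates 4 and above, as 53.2% to 60.8% of the genes with few reads had an even number of reads in the former against 48.2% to 50.5% in the latter, so differences are also given within each of these sets. Markers of undifferentiated spermatogonia summed to 2640 to 3690 RPM in control and 2500 to 3950 RPM in cryptorchid libraries, with *Gfra1* at 7.88 and 8.40 log2 RPM, so the sorted cell type was present in both groups. Of these 15 markers *Egr4* was called lower (difference -1.59), and of 6 markers of differentiating spermatogonia *Stra8* was called higher (1.09). Markers of spermatids summed to 494 to 2690 RPM in control and 16.3 to 1810 RPM in cryptorchid libraries, and 3 of the 8 (*Prm1*, *Prm2* and *Odf1*) were called lower. Those of Sertoli cells summed to 92.5 to 482 and 84.4 to 528 RPM, with 0 of 11 called.

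Promoter sequences are shown for the called members *Pax2*, *Gata1* and *Sox15*, whose values follow, to set a promoter with many CG pairs beside promoters with few. They are the 250 bases before the RefSeq transcription start (GRCm38.p6), in lower case with each CG pair in capitals, for windows outside annotated exons, and were read 5′ to 3′ on the strand of the gene. The *Pax2* window is chr19:44755502-44755751 (plus strand), that of *Gata1* is chrX:7967911-7968160 (minus strand), and that of *Sox15* is chr11:69654787-69655036 (plus strand).
Pax2: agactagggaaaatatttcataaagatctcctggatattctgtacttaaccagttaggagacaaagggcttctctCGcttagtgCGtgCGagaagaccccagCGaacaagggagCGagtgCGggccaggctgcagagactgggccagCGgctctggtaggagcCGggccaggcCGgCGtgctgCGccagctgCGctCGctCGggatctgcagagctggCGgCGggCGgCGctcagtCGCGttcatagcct
Gata1: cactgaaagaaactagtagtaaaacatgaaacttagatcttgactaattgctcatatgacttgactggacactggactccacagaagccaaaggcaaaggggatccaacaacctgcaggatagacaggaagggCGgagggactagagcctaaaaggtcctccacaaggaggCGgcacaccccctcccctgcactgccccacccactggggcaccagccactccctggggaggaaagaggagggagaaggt
Sox15: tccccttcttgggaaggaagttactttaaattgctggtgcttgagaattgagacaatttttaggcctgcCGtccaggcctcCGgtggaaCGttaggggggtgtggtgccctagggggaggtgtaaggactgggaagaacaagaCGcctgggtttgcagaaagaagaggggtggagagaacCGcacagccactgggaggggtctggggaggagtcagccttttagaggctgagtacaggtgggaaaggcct

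The *Pax2* window holds 20 CG pairs, 0.881 of the number its base composition would give, whereas that of *Gata1* holds 2 (0.11) and that of *Sox15* holds 5 (0.299). The *Gata1* window precedes a RefSeq start inside the gene as GENCODE annotates it (chrX:7959260-7978071), so it is not the window before the outermost start. Another start of *Pax2* lies upstream, and its window holds 5 CG pairs (0.391). A further *Pax2* window and that of *Gata3*, which was called lower, lie in annotated exons and are not shown. They hold 25 (0.761) and 19 (0.633) CG pairs. No RefSeq window matched *Tbx3*. Of the 46 members, 33 matched the RefSeq table with 45 windows. A window rich in CG pairs, with over 50% G and C and an observed over expected ratio above 0.6, was found in 23 of the 45 (51.1%) against 30.8% of all 32851 windows. On either strand, the SOX motif ACAAT stood in 11 of the 45 windows (24.4%, against 27.7% of all), among them that of *Sox15*. The GATA motif AGATAA stood in 3 (6.67% against 9.99%), and the T-box motif AGGTGTGA in 0 (1.12% of all).

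Most of these factors were low in the sorted cells. In all, 17 of the 46 had reads in every library, 25 had a median of under 10 reads and 8 had no reads in most libraries of both groups. Per kb of exon, the scale on which genes can be compared, SOX genes were the most abundant, led by *Sox13* at 11.4, *Sox4* at 6.20, *Sox5* at 3.50, *Sox30* at 2.73 and *Sox6* at 2.38 mean RPM per kb. *Sox5*, *Sox6* and *Sox13* are the 3 members of the SOXD group, which lack a transactivation domain and act with other factors. *Sox4* is a SOXC gene of progenitor cells, and *Sox30* is known from meiosis and spermatids. *Gata4*, a Sertoli and Leydig cell factor, followed at 1.88 RPM per kb, then *Sox15* at 1.83 and *Tbx3*, which acts in limb development and embryonic stem cells, at 1.42. *Pax4* had no reads in any library.

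**Figure D1:**
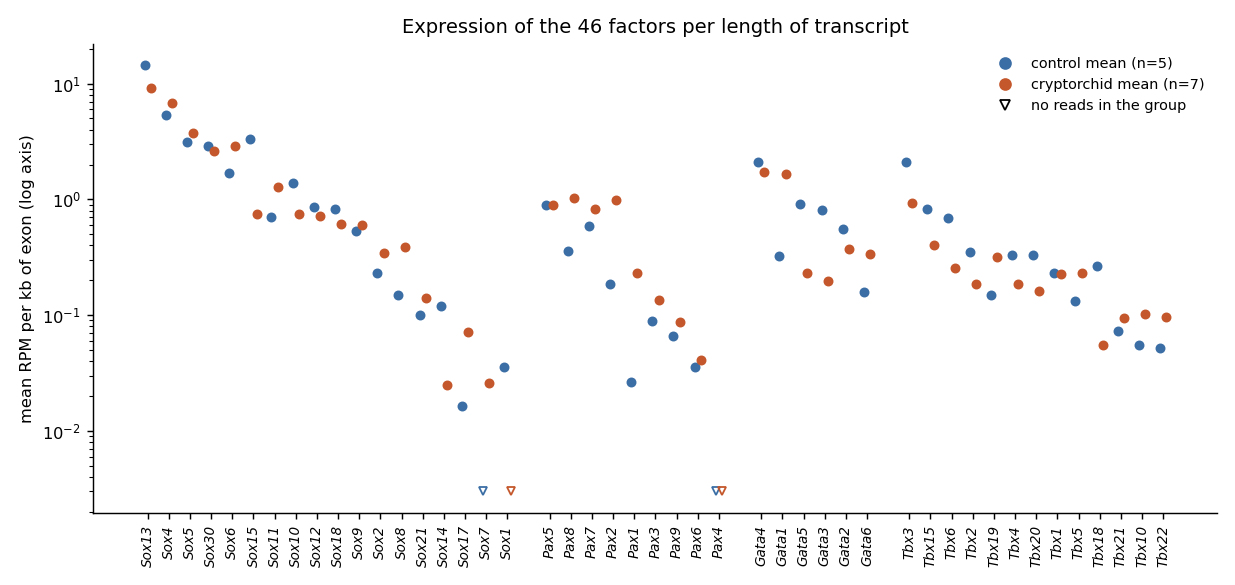
Mean RPM per kb of exon on a log axis for each of the 46 factors, ordered within the SOX, PAX, GATA and T-box families, with the control mean in blue (n=5) and the cryptorchid mean in orange (n=7). Triangles at the bottom mark a group without reads. *Sox13* stands highest at 11.4 RPM per kb over all libraries.

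Of the 46 members, 37 passed the limit on low expression (log2 of the mean RPM above -1) and were tested with the 16932 genes that passed it. *Sox1*, *Sox7*, *Sox14*, *Sox17*, *Pax4*, *Pax9*, *Tbx10*, *Tbx21* and *Tbx22* did not pass and were not tested. A gene was called when its mean differed by at least 2-fold with an unadjusted limma *P*-value under 0.05. Under this rule *Pax2* and *Gata1* were called higher in the cryptorchid libraries, and *Gata3*, *Sox15* and *Tbx3* lower. That is 2 of 37 called higher (5.41%) where 3.18% of all genes tested were called higher, and 3 of 37 called lower (8.11%) where 2.45% of all genes were. Over all genes this is 538 higher and 415 lower, a split that turned to 463 and 532 with median centring and to 451 and 545 with quantile normalization. These counts are small, and neither was read as setting the members apart from other genes. The members with an adjusted *P*-value under 0.05 numbered 0 in limma and 0 in the exact rank sum test, whereas 6 had an unadjusted limma *P*-value and 5 an unadjusted exact *P*-value under 0.05. Over all genes, limma gave 1551 unadjusted and 2 adjusted *P*-values under 0.05.

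**Figure D2:**
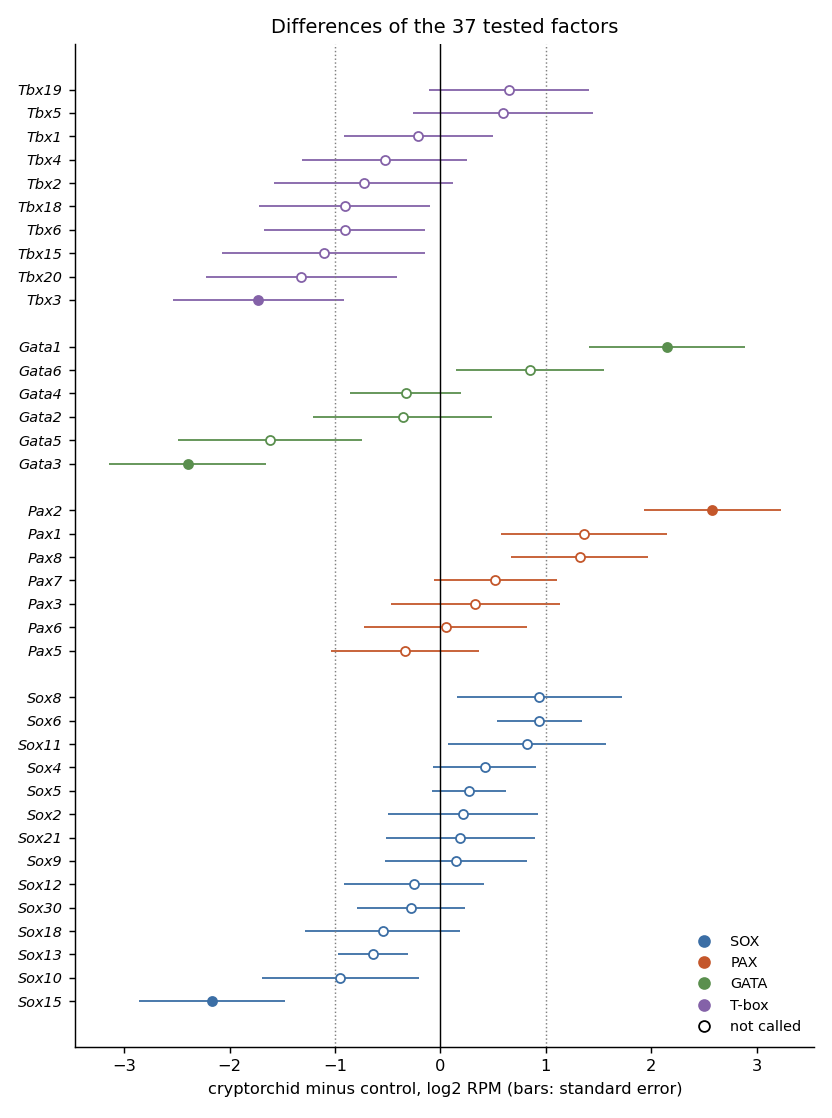
Difference of mean log2 RPM, cryptorchid minus control, for the 37 tested factors by family, with bars for the standard error and dotted lines at a 2-fold change. Filled points are the 5 called genes, of which *Pax2* (2.58) and *Gata1* (2.15) lie to the right and *Gata3*, *Sox15* and *Tbx3* to the left.

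Of the PAX genes, *Pax2* was called higher. *Pax2* is a paired box gene of the kidney and genital tract and belongs with *Pax5* and *Pax8* to 1 group of related genes. It lies at chr19:44756045-44837871 on the plus strand (GRCm38), and reads were counted over its exons. Control replicates 1 to 5 stood at -1.15, -1.92, 0.35, 0.35 and 1.0 log2 RPM (1 to 13 reads), and the cryptorchid libraries ran from 1.43 over a median of 2.54 to 2.96 (14 to 137 reads). Every cryptorchid library was above every control library. The means were -0.28±1.21 (SD, *n*=5) and 2.31±0.609 (SD, *n*=7), a difference of 2.58 (standard error 0.651). *Pax2* had a limma *P*-value of 0.000876 (adjusted 0.195) and an exact two-sided rank sum *P*-value of 0.00253 (adjusted 0.301), the smallest that 5 against 7 libraries allow. It was the only one of the 37 members whose cryptorchid values all lay above control, which held for 0.555% of all genes, and 0 members lay wholly below, which held for 0.283%. Within replicates 1 to 3 *Pax2* differed by 3.10, and within replicates 4 and above by 1.72.

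*Pax8*, a factor of thyroid and kidney, stood at 1.64, 0.15, 0.56, 1.24 and 1.53 log2 RPM in control replicates 1 to 5 and ran from 0.14 over a median of 2.55 to 3.48 in cryptorchid libraries. Only cryptorchid replicate 6, at 0.14, did not lie above every control library. Its spermatid markers summed to 1810 RPM, against at most 672 RPM in the other cryptorchid libraries, and the part of this was not tested. The difference was 1.32 (standard error 0.648), with a limma *P*-value of 0.0556 and an exact rank sum *P*-value of 0.0480 (adjusted 0.557 and 0.519), so the gene was not called. Without cryptorchid replicate 6 the difference was 1.69 and the gene was called.

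*Pax5*, the B cell factor of the same group, had 1.64, 2.53, 2.74, 3.0 and 4.02 log2 RPM in control replicates and ran from -0.07 over a median of 2.49 to 4.14 in cryptorchid libraries, and the groups overlapped along nearly their whole range (difference -0.34, standard error 0.703). *Pax7*, known from muscle stem cells and from rare spermatogonia of the mouse, had control values of 0.64, 1.66, 2.51, 2.30 and 1.0, and cryptorchid values from 1.01 over 2.31 to 3.08. Its difference was 0.52 (standard error 0.585, adjusted limma *P*-value 0.832). *Pax1*, a gene of the skeleton, was at the common lowest value in every control library (0 to 2 reads) and above it in 3 of 7 cryptorchid libraries, with at most 54 reads. Over the 7 tested PAX genes the median difference was 0.52, with 6 higher and 1 lower in mean, while the median over all genes was 0.09 and 56.0% were higher. *Pax6* was among the 6 at a difference of 0.05, and without cryptorchid replicate 1 the split was 4 higher and 3 lower. *Pax1* was also among them, and it passed the limit on low expression through its cryptorchid libraries. Without that limit 7 of 9 PAX genes were higher, with a median of 0.33.

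**Figure D3:**
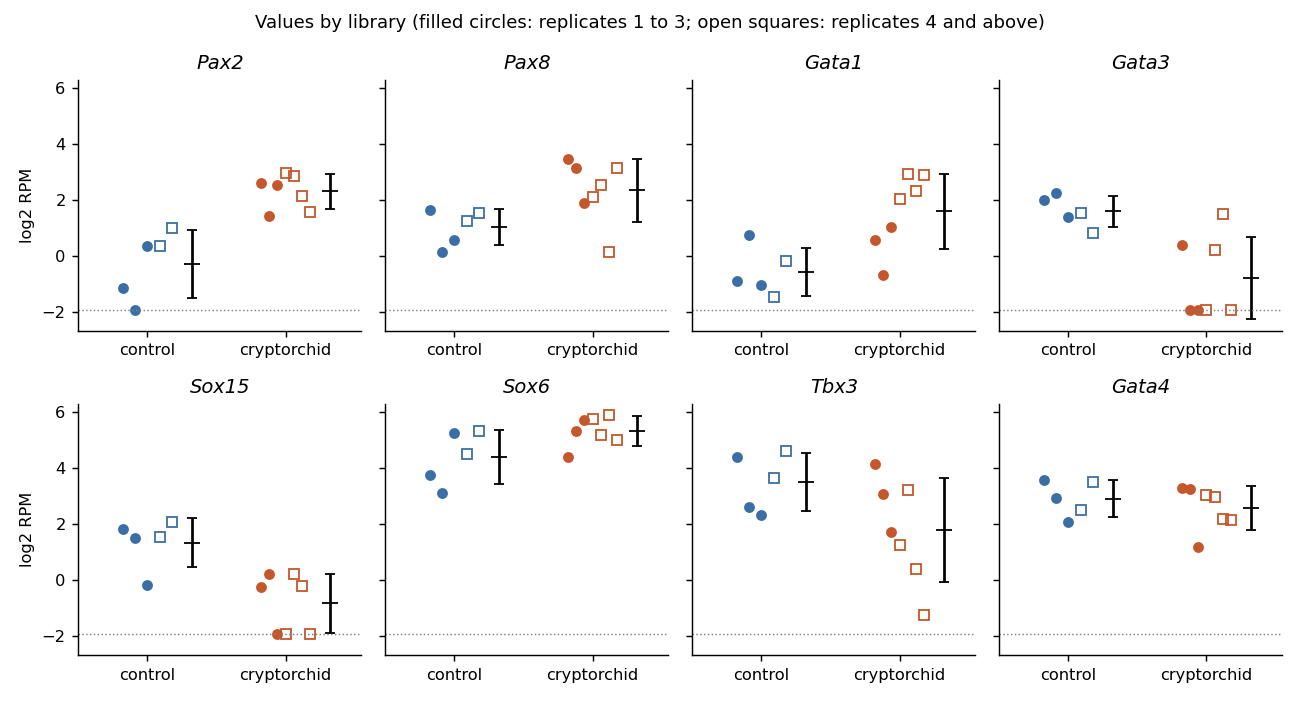
Log2 RPM in each of the 5 control (blue) and 7 cryptorchid (orange) libraries for 8 factors, with filled circles for replicates 1 to 3, open squares for replicates 4 and above, black bars for the mean and SD, and a dotted line at the common lowest value of -1.92. The groups separate fully for *Pax2*, and overlap in the others.

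GATA factors moved in both directions. *Gata1*, the erythroid factor that Sertoli cells also make, lies on the minus strand of chromosome X. It had -0.91, 0.74, -1.03, -1.46 and -0.17 log2 RPM in control replicates 1 to 5 (2 to 48 reads) and ran from -0.67 over a median of 2.04 to 2.93 in cryptorchid libraries (7 to 35 reads). Cryptorchid replicates 1 and 2 lay within the control range and the other 5 above it. The means were -0.57±0.864 (SD, *n*=5) and 1.59±1.34 (SD, *n*=7). The difference was 2.15 (standard error 0.739), with limma *P*=0.00913 (adjusted 0.362) and exact rank sum *P*=0.0177 (adjusted 0.438).

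The difference of *Gata1* was 0.70 within replicates 1 to 3 and 3.37 within replicates 4 and above, and a limma test of this change gave 2.67 (standard error 1.29), which did not pass an unadjusted *P*-value of 0.05. The summed Sertoli markers were 92.5 to 111 RPM in control and 84.4 to 161 RPM in cryptorchid libraries of replicates 1 to 3, and 350 to 482 and 243 to 528 RPM in replicates 4 and above. By gene, 7 of the 11 tested Sertoli markers were higher in mean and 4 lower, with a median difference of 0.58 against 0.09 over all genes. Their part in the *Gata1* result was not tested. In bulk RNA, fewer cells of a type and less RNA per cell cannot be told apart, here and for every gene below.

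*Gata3*, which acts in T cells and in the kidney duct, lies at chr2:9857078-9890034 on the minus strand. Control replicates 1 to 5 stood at 2.01, 2.24, 1.40, 1.54 and 0.83 log2 RPM (8 to 136 reads). Of the cryptorchid libraries 4 were at the common lowest value of -1.92, which is also their median, and the highest was 1.51 (0 to 29 reads). Only cryptorchid replicate 6 reached the control range. It was also the cryptorchid library with the highest sum of spermatid markers (1810 RPM, the next at 672 RPM), and the part of this was not tested. The means were 1.6±0.552 (SD, *n*=5) and -0.80±1.46 (SD, *n*=7), a difference of -2.40 (standard error 0.748, limma *P*=0.00479 with an adjusted value of 0.289, exact rank sum *P*=0.00884). It was -3.04 within replicates 1 to 3 and -1.71 within replicates 4 and above. Lymphocyte markers summed to 2.71 to 8.42 RPM in control and 2.78 to 18.6 RPM in cryptorchid libraries, with 0 of 4 tested called, and macrophage markers to 3.62 to 25.2 and 11.3 to 37 RPM, with 1 of 7 (*Mrc1*) called higher. An exon of *9230102O04Rik* overlaps *Gata3* on the same strand, and that gene had means of -1.20 and -1.30.

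*Gata4* and *Gata6*, which the study used as markers of Sertoli cells, were measured in every library. *Gata4* had 3.59, 2.95, 2.07, 2.50 and 3.50 log2 RPM in control replicates and ran from 1.18 over 2.98 to 3.29 in cryptorchid libraries. Its difference was -0.33 (standard error 0.529). *Gata6* had -0.80, -0.15, -0.03, 1.0 and -0.59 in control replicates and ran from -1.07 over 0.65 to 2.58, with a difference of 0.85 (standard error 0.700). The groups overlapped for both.

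*Gata2*, the factor of blood stem cells, had 1.99, 0.55, -1.92, 2.30 and 2.22 in control replicates and from -1.92 over 0.77 to 1.90 in cryptorchid libraries, with a difference of -0.36 (standard error 0.846). *Gata5*, a gene of endoderm and heart, had a difference of -1.62 (standard error 0.872, limma *P*=0.0796, adjusted 0.605, exact rank sum *P*=0.157). Over the 6 GATA genes the median was -0.35, with 2 higher and 4 lower in mean. Without single libraries it ran from -0.82 (control replicate 3) to -0.10 (cryptorchid replicate 7, 3 higher and 3 lower), and it was also over 1.5 times smaller in size without control replicates 1 (-0.14) or 5 (-0.13) or cryptorchid replicate 3 (-0.20).

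*Sox15* was the called member of the SOX family. It is the only SOXG gene, was described in embryonic stem cells and muscle, and lies at chr11:69655314-69656727 on the plus strand. Control replicates 1 to 5 stood at 1.82, 1.51, -0.18, 1.54 and 2.07 log2 RPM (9 to 86 reads), and cryptorchid libraries ran from -1.92 over a median of -0.23 to 0.23 (0 to 19 reads). Control replicate 3, at -0.18, was the only control library within the cryptorchid range. The means were 1.35±0.888 (SD, *n*=5) and -0.82±1.05 (SD, *n*=7), a difference of -2.17 (standard error 0.693, limma *P*=0.00559 with an adjusted value of 0.313, exact rank sum *P*=0.0101). The difference was -1.69 within replicates 1 to 3 and -2.76 within replicates 4 and above. Its exons overlap those of *Mpdu1* on the other strand. As the library kit does not mark strand, reads from the shared stretch cannot be assigned to either gene, and the length of that stretch was not measured. *Mpdu1* had means of 5.41 and 5.02 log2 RPM, a difference of -0.39 (not called). Of the other called members, *Gata3* and *Tbx3* also overlap exons on the other strand (*Gm13256* and *Tbx3os1*), of genes that were not among those measured.

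The 3 SOXD genes were high in every library. *Sox6* had 3.76, 3.13, 5.28, 4.51 and 5.34 log2 RPM in control replicates 1 to 5 and ran from 4.39 over 5.35 to 5.89 in cryptorchid libraries. Its difference was 0.94 (standard error 0.400, limma *P*=0.0310, adjusted 0.480, exact rank sum *P*=0.106), which is under the 2-fold limit. *Sox13* had 5.09, 6.36, 6.47, 5.35 and 6.02 and ran from 4.6 over 5.18 to 6.03, a difference of -0.64 (standard error 0.334, limma *P*=0.0702, adjusted 0.587, exact rank sum *P*=0.149). *Sox5* had 4.97, 4.38, 5.78, 5.71 and 6.07 and ran from 4.95 over 5.41 to 6.64, with a difference of 0.27 (standard error 0.350).

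SOX genes of somatic cells of the testis overlapped between the groups. *Sox9*, which directs Sertoli cell fate, had 0.60, -0.68, 1.23, 1.71 and 1.73 log2 RPM in control replicates and ran from -0.07 over 1.14 to 2.17 in cryptorchid libraries (difference 0.15, standard error 0.674). *Sox8*, its close relative, had -1.92, -1.92, -1.77, 0.13 and -0.17 in control replicates (0 to 6 reads). It ran from -1.92 over 0.43 to 1.70 in cryptorchid libraries (0 to 30 reads), with a difference of 0.94 (standard error 0.786). The study lists *Sox8* among developmental genes that lost the repressive histone mark H3K27me3 and whose RNA was higher, the RNA being that of these same libraries. Of the SOXF genes of vessel walls, *Sox7* and *Sox17* were near the limit of detection, and *Sox18* had a median of 8 reads. *Sox18* had 0.09, -0.39, -0.77, 1.54 and 0.41 in control replicates and ran from -1.92 over -0.23 to 1.18 (difference -0.55, standard error 0.731). *Sox7* had reads in 2 of 7 cryptorchid libraries and in no control library, and *Sox17* in 2 of 7 and 1 of 5. Beside them, 2 of 8 tested endothelial markers (*Cdh5* and *Vwf*) were called higher, where 3.18% of all genes tested were. The endothelial markers summed to 25.7 to 49.2 RPM in control (median 41.3) and 36.9 to 74.1 RPM in cryptorchid libraries (median 40.3).

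Of the 10 tested T-box genes 8 were lower in mean, where 56.0% of all genes tested were higher. Their median was -0.82, against 0.09 over all genes, and it was -0.25 without control replicate 1 and -0.53 without control replicate 5. Apart from *Tbx3* (60) and *Tbx20* (20), these genes had a median of at most 8 reads, so most of these directions rest on values near the lowest. Without the limit on low expression, 8 of 13 T-box genes were lower and 5 higher, with a median of -0.53. *Tbx3* lies at chr5:119670669-119684724 on the plus strand and had 4.41, 2.63, 2.32, 3.65 and 4.63 log2 RPM in control replicates 1 to 5 (51 to 519 reads). Cryptorchid libraries ran from -1.22 over a median of 1.74 to 4.15 (2 to 396 reads). The groups overlapped, with cryptorchid replicates 3, 4, 6 and 7 below every control library. The means were 3.53±1.03 (SD, *n*=5) and 1.80±1.85 (SD, *n*=7), a difference of -1.73 (standard error 0.813, limma *P*=0.0475 with an adjusted value of 0.537, exact rank sum *P*=0.106).

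The difference of *Tbx3* was -0.13 within replicates 1 to 3 and -3.23 within replicates 4 and above, and a limma test of this change gave -3.09 (standard error 1.48), which did not pass an unadjusted *P*-value of 0.05 either. *Tbx3* lost its call when any of control replicates 1, 4 and 5 or cryptorchid replicates 3, 4, 6 and 7 was left out, at -1.22 to -1.72 and limma *P*-values of 0.0620 to 0.121. Cryptorchid minus control was lower in replicates 4 and above than in replicates 1 to 3 for 8 of the 10 tested T-box genes, by -0.45 to -3.13, and higher for *Tbx1* (1.12) and *Tbx6* (0.18). *Tbx20*, a heart gene, had 1.64, -0.52, 0.97, 3.27 and 2.15 in control replicates and ran from -1.92 over 0.60 to 2.45, with a difference of -0.03 within replicates 1 to 3 and -2.89 within replicates 4 and above. *Tbx15*, a gene of the skeleton and muscle, had -1.92, 2.78, 1.04, -0.14 and 2.53 in control replicates and ran from -1.92 over 0.25 to 2.71, with differences of 0.58 and -2.55 within the sets. The change between sets had a limma *P*-value under 0.05 in 0 of 37 members and in 276 of 16932 genes (1.63%). The T-box median was -0.08 within replicates 1 to 3 (6 of 10 lower) and -1.10 within replicates 4 and above (9 of 10 lower). Over all genes tested these medians were 0.05 and 0.0.

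**Figure D4:**
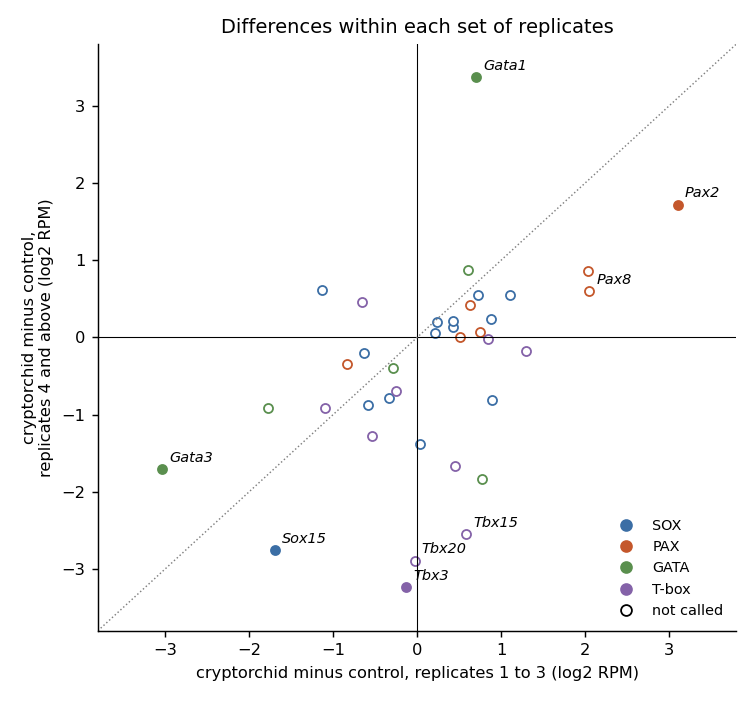
Difference of mean log2 RPM, cryptorchid minus control, for the 37 tested factors within replicates 1 to 3 (horizontal) and within replicates 4 and above (vertical), with the dotted line at equal differences and the 5 called genes filled. *Pax2*, *Gata3* and *Sox15* keep a difference of over 1 in both sets, while *Gata1* (0.70 and 3.37) and *Tbx3* (-0.13 and -3.23) lie far from the line.

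Partners and relatives of the families were taken from a list of 31 genes, of which 28 were tested. Of these, 1 was called higher and 2 lower, where 3.18% and 2.45% of all genes tested were. *T*, the founding T-box gene and known from spermatogonial stem cells, had means of 2.58±0.729 (SD, *n*=5) and 3.76±0.910 (SD, *n*=7), a difference of 1.19 (adjusted limma *P*-value 0.498), which is opposite in sign to most Tbx genes. *Eomes*, a T-box gene of self-renewing spermatogonia, had 2.66 and 3.69 (difference 1.03, adjusted limma *P*-value 0.597) and was not called.

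Among partners of PAX factors, *Six4* fell from 4.17±0.562 to 1.78±1.24 (difference -2.39, standard error 0.611, adjusted limma *P*-value 0.199). Every cryptorchid library (at most 2.64) lay below every control library (at least 3.38). Such a separation held for 1 of the 28 tested genes of the list and for 0.283% of all genes tested. *Eya4* fell from 4.42±0.585 to 2.02±2.69 (difference -2.40, adjusted limma *P*-value 0.463). The cofactors of GATA proteins *Zfpm1* and *Zfpm2* differed by -0.19 and 0.22, and neither was called.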

How the data were processed

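The authors sorted the cells, took RNA worth about 200 cells into Smart-seq2, trimmed reads with Trim Galore 0.6.6, mapped them to mm10 with HISAT2 2.1.0, used SeqMonk to count reads on protein-coding genes, and deposited them as log2 RPM for each library. Smart-seq2 does not mark strand and carries no molecular identifiers, so read numbers cover counting error only. The reads behind values were recovered from the steps between low values and served as depth.

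From the deposited log2 RPM, values under the common lowest value were raised to it, without a further pseudocount. All 16932 genes whose mean RPM exceeded -1 on the log2 scale were fitted with limma 3.58.1 (lmFit, eBayes with trend, R 4.3.3), and tested by the exact two-sided Wilcoxon rank sum over all 792 assignments (smallest *P*=0.00253), both with Benjamini-Hochberg adjustment over all genes tested. The authors called genes with edgeR on counts. As the deposited values are on the log2 scale, limma took its place here, and voom on the recovered reads was the alternative based on counts. The limma script was tested on simulated data. Other software was Python 3.11.15, numpy 2.4.6, pandas 2.3.3, scipy 1.17.1 and matplotlib 3.10.9. Positions are those of GENCODE on GRCm38, the build of mm10.

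Members, lists and tests were chosen with earlier results of these data known. Members are named with their values if they were called, did not overlap or had an exact *P*-value under 0.05, if they were the 3 highest of a family by mean log2 RPM, if the study lists or used them (*Sox8*, *Gata4*, *Gata6*), or if they are known in Sertoli or endothelial cells (*Sox9*, *Gata1*, *Sox7*, *Sox17*, *Sox18*). *Sox4*, *Sox30*, *Gata5* and *Pax1* were added after their values were seen. Alternatives were no common lowest value, other pseudocounts, median centring, quantile normalization, other filters, array weights, voom on recovered reads, a block by replicate number, a term for the sets, each set alone and each library left out. Leaving out the 3 libraries of lowest array weight was added after the data were seen.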

Additional observations from a re-analysis of the deposited data

Results flagged for a closer look

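Among 38 groups of libraries of the 19 named and tested members, 2 held a library whose gap to its nearest neighbour passed Dixon's limit for that group size, where chance flags about 1 in 20. *Gata2* stood at -1.92 log2 RPM in cryptorchid replicate 7, with 1 read, while the nearest cryptorchid library was at 0.25. *Sox15* stood at -0.18 log2 RPM in control replicate 3, with 9 reads, while the nearest control library was at 1.51. Without control replicate 3 the groups of *Sox15* did not overlap, which then held in the same direction for 1.67% of all genes.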

How the results depend on the processing

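*Pax2* was called in 14 of 14 alternatives (1.68 to 3.52), *Gata1* in 12 of 14 (0.70 to 3.37), *Gata3* in 12 of 13 (-3.26 to -1.29), *Sox15* in 12 of 13 (-2.76 to -1.18) and *Tbx3* in 9 of 14 (-3.23 to -0.13). The first 4 were also called with any 1 of the 12 libraries left out. *Gata1* was not called with voom (1.59) or in replicates 1 to 3 alone, nor was *Sox15* there (-1.69), nor *Gata3* in replicates 4 and above alone (-1.71). *Pax8* was called in 6 of 14 alternatives, and *Sox6* in 2 of 14 and without control replicate 3 (1.15), control replicate 5 (1.17) or cryptorchid replicate 1 (1.09). The number of members called lower was 1 with a filter at log2 of the mean RPM above 1 (2.37% of all genes tested), 1 in replicates 1 to 3 alone (1.89%) and 5 in replicates 4 and above alone (3.88%). With single libraries left out, 1 to 2 members lay wholly above control and 0 to 1 wholly below, with *Pax8* added above and *Gata3* below without cryptorchid replicate 6 (0.774% and 0.567% of all genes) and *Sox15* below without control replicate 3 (1.67%). The cause was not tested. The member median ran from -0.35 to 0.43, and the GATA median was 0.16 in replicates 1 to 3 alone. Same-numbered libraries deviated together with r of 0.037 to 0.474 across genes, with 4 of 5 control libraries closest to their own number. As replicate 5 (0.037) was not, the numbers were not taken as pairs. With the replicate number as a block, 3 members were called higher and 2 lower (4.45% and 5.4% of all genes). *Pax2* was 2.76 (limma adjusted *P*=0.0190), *Gata3* -2.64 (0.0474), *Pax8* 1.61 and called, and *Tbx3* -0.84 and not called, in a fit where 5.8% of all genes had an adjusted *P*-value under 0.05, against 0.0118% without the block. With array weights, *Pax2*, *Gata1* and *Sox15* had adjusted limma *P*-values of 0.0409, 0.0344 and 0.0344, as 2.36% of all genes had one under 0.05. Leaving out the 3 libraries of lowest weight gave 3 members higher and 3 lower (4.89% and 3.24% of all genes). Low read numbers limit the 25 members with a median under 10 reads.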
